A study of Homo sapiens with 12 samples.

Results

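The replication-dependent histone genes were taken as every gene of the expression table whose symbol is that of a clustered H1, H2A, H2B, H3 or H4 gene, without pseudogenes, which gave 67 of 59577 genes. They fall into 6 H1, 16 H2A, 17 H2B, 13 H3 and 15 H4 genes. H2A, H2B, H3 and H4 are the core histones that DNA is wound around, and H1 is the linker histone that binds between these particles. In GENCODE 29, which held 65 of the 67, there were 53 of them on chromosome 6, 11 on chromosome 1 and 1 on chromosome 12.

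Cells make these mRNAs mainly in S phase, when new DNA needs new histones. Most histone mRNAs of this kind have no poly(A) tail. Their 3′ end is cut just after a short stem-loop, which the protein SLBP binds, and the mRNA is degraded when DNA synthesis stops. A few members are known to give tailed transcripts as well, which are read past the stem-loop to an ordinary polyadenylation signal. Replication-independent histones, such as H3.3 and H2A.Z, come from other genes. Most of these give tailed mRNA and are not limited to S phase, but this does not hold for every gene listed under that name.

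RNA was sequenced from H1299, an established human non-small cell lung cancer line labelled as lung adenocarcinoma. The hyperoxia group (n = 6) was kept for 24 h in 60% oxygen, 5% CO2 and 35% nitrogen, and the normoxia group (n = 6) in 21% oxygen, 5% CO2 and 74% nitrogen. All samples were of this 1 line, and the labels name no transgene or other agent. Values are TPM (an abundance scaled to transcript length and to a common total). Separate cultures are not stated in the labels, so the p-values may reflect technical spread between samples only.

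The epithelial keratins KRT8 and KRT18 averaged 592 and 947 TPM in hyperoxia, and 603 and 955 TPM in normoxia. The mesenchymal filament VIM averaged 3004 TPM in hyperoxia and 3351 TPM in normoxia. Of 8 epithelial and lung markers only the 2 keratins reached a mean of 1 TPM, EPCAM, CDH1, NKX2-1 and NAPSA lay under it, and the surfactant gene SFTPC was at 0 in all 12 samples. Of 10 markers of other cell types CD68 (44.5 TPM) and COL1A1 (1.08 TPM) reached 1 TPM. The depth behind each value is unknown, because none can be read from TPM.

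The stem-loop is the feature that sets these mRNAs apart, so it was read from the transcript models of GENCODE 29. The histone 3′ stem-loop consensus was searched on the sense strand, and 29 of the 65 members held it in at least 1 transcript model. Over all 206694 transcript models 113 held it (0.0547%), and 73 held it on the opposite strand. For 30 members every model ended with the coding sequence, so a stem-loop could not be looked for; H2BC12, H2AC20, H1-2 and H4C12 are among these. For H2BC15 and H2BC4 the model of the length listed with the values (4137 and 659 bases) held no stem-loop. Their windows come from other models of the same genes. The windows below, 5′ to 3′, belong to members whose values are described further on. The 16 bases of the stem-loop are in capitals and 5 bases on each side in lower case.
H2BC15: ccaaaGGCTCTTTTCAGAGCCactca
H2BC4: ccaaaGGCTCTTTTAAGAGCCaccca
H2BC8: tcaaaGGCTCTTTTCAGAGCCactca
H2AC11: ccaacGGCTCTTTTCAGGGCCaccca
H2AC6: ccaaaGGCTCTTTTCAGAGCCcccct
H3C10: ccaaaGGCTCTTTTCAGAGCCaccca
H4C11: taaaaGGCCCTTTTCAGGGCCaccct
H4C14: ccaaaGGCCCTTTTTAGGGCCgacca

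One form of the stem-loop, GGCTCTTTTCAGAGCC, was shared by 15 members of the H2A, H2B and H3 classes. The forms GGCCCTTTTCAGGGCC (5 members) and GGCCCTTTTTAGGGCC (3 members) were found among the members in H4 genes. In 21 of the 29 members a transcript model went on for more than 100 bases after the stem-loop, as far as 1128 bases in H2AC6, 1761 bases in H2AC11 and 769 bases in H3C10. In H4C11 the model ended 6 bases after it. In 15 of these 21 a model that ran so far past the stem-loop also held AATAAA or ATTAAA, the common polyadenylation hexamers, in its last 40 bases, and 17 of the 21 held one there in some model. That match was found in 30.2% of all transcript models. This share counts single models, while the counts among the 21 are of genes with any such model, so they are unlike measures.

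The promoters were shown because H2B and H2A genes are known for an octamer element that the factor OCT1 binds. In the 250 bases before the start, ATTTGCAT on either strand was found in 14 of 17 H2B and 11 of 15 H2A promoters, in 1 of 11 H3 promoters, and in none of the 6 H1 and 12 H4 promoters matched by symbol in the RefSeq promoter table (GRCh38.p14). It was found in 2.03% of the 27305 promoters of that table. The windows below show the octamer in capitals for the highest H2B gene and for 4 others.
H2BC12 (chr6:27146873-27146920, minus strand): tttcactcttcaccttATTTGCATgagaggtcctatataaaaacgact
H2BC11 (chr6:27132811-27132858, minus strand): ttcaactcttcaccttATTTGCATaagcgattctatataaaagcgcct
H2BC21 (chr1:149886697-149886744, minus strand): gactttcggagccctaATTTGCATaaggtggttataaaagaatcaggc
H2BC8 (chr6:26216705-26216752, minus strand): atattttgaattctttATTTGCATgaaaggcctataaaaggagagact
H2BC9 (chr6:26251549-26251596, plus strand): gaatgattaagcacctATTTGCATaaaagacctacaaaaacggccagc

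The octamer did not follow the level of the H2B genes. It was found in 7 of 9 H2B promoters of genes with a mean of at least 1 TPM and in 7 of 8 of genes under it. H2BC5 and H2BC15, at means of 7.50 and 2.77 TPM, had no match, while the testis-type gene H2BC1 had one and was at 0 in every sample. TATAAA was found in 42 of 61 member promoters, against 13.0% of all promoters in the table. CCAAT was found in 52 of 61, against 37.0% of all, and among H4 genes in 3 of 12.

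Over the 12 samples 31 of the 67 members reached a mean of 1 TPM (46.3%), against 24.4% of all genes in the table. By class these were 1 of 6 H1, 12 of 16 H2A, 9 of 17 H2B, 3 of 13 H3 and 6 of 15 H4 genes. Another 28 members lay above 0 and under 1 TPM, and 8 were at 0 in all samples, namely H1-6, H2AC1, H2BC1, H3C3, H3C11, H4C6, H4C7 and H4C13. Only 11 members reached 5 TPM, and 3 reached 10 TPM. Just inside the minimum were H2AC12 and H2BC8 (1.34 TPM each) and H4C4 (1.01 TPM), and just outside were H2BC10 (0.868 TPM), H2BC6 (0.858 TPM) and H3C4 (0.819 TPM). H2AC12, H2BC8 and H4C4 reached it through normoxia, at 1.78, 1.84 and 1.48 TPM. Their hyperoxia means, at 0.902, 0.838 and 0.538 TPM, lay under 1 TPM.

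Levels were dominated by H2BC12, an H2B gene on chromosome 6, at 173 ± 8.15 TPM in hyperoxia and 157 ± 8.47 TPM in normoxia (SD, n = 6 each). It made up 81.7% of the summed TPM of the H2B class and 51.8% of that of all members. The second member, the linker histone gene H1-2, lay 7.71-fold lower at 21.4 TPM over all samples, and it was followed by H2AC6 (10.3 TPM) and H2BC4 (9.42 TPM). Members known to have tailed transcripts (H1-2, H2AC6, H2BC4, H2BC5, H2BC12 and H2BC21) all reached 1 TPM. Taken singly, they held the 4 highest means of the 67. H2BC21 was the lowest of these 6 at 1.75 TPM. This ranking depends on members with identical coding sequences being listed apart. The pair H2AC18 and H2AC19 summed to 18.1 TPM in hyperoxia and 18.3 TPM in normoxia, above H2AC6 and H2BC4. The pair H4C11 and H4C12 summed to 10.3 TPM in hyperoxia and 11.998 TPM in normoxia, above H2BC4.

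These counts do not show which histone mRNAs carried a poly(A) tail. A TPM value does not tell tailed from untailed transcripts, and the sources name both an Illumina TruSeq kit and a removal of ribosomal RNA with another maker's kit, so the library type is not settled. RNAs known to have no tail were also present, with 15 of 22 listed ones at a mean of 1 TPM or more. Their summed TPM ranged between 481 and 2246 in hyperoxia and between 611 and 2422 in normoxia. RN7SL2 and RN7SL1 had the highest means among them, at 552 and 454 TPM in hyperoxia and 334 and 360 TPM in normoxia, so the sum is not spread evenly over the list.

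**Figure D1:**
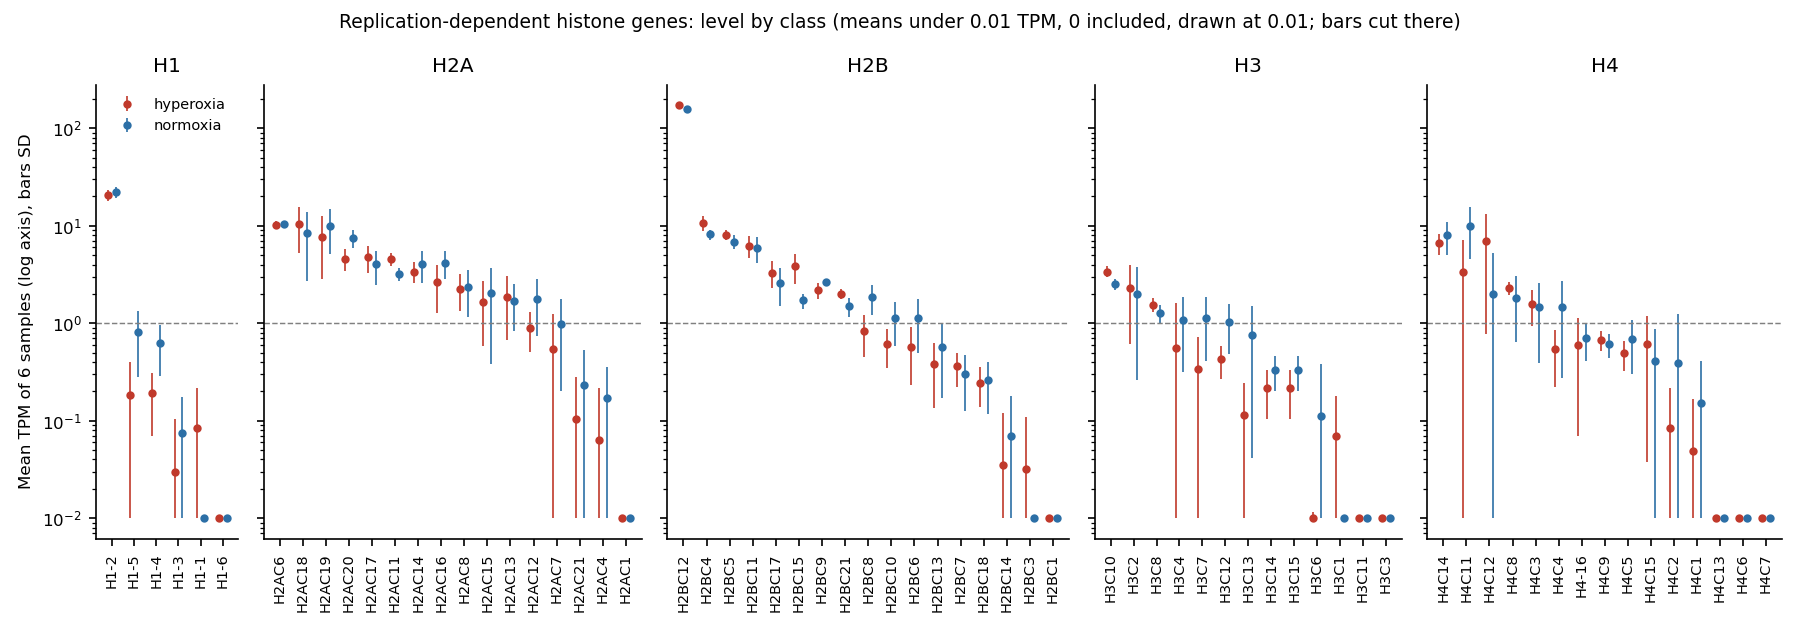
Mean TPM (log axis) of each of the 67 members by class, with hyperoxia in red and normoxia in blue, bars showing the SD over 6 samples and the dashed line marking 1 TPM. H2BC12 stands above every other member at 173 TPM in hyperoxia and 157 TPM in normoxia, and 8 members are drawn at the floor because they were at 0 in all samples.

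Hyperoxia was compared with normoxia in a limma fit over the 14520 genes with a mean of at least 1 TPM, on log2(TPM + 1), with Benjamini-Hochberg adjustment over all of them and a threshold of 0.05. Of the 31 members tested 5 rose at 60% oxygen (H2BC15, H2AC11, H2BC4, H3C10 and H2BC12), 2 fell (H2AC20 and H2BC8) and 24 did not pass. These are 22.6% of the members tested, against 17.3% of all tested genes, and 16.1% higher and 6.45% lower, against 11.7% and 5.63%. Of tested genes with a mean under 5 TPM, 6.48% were called, and of the 20 members tested there 4 (20%), namely H2BC15, H2AC11, H3C10 and H2BC8. In no member did the 2 groups lie apart without overlap, against 8.78% of all tested genes. The median log2 fold change was 0.08 for the members and 0.03 for all tested genes. In RNA from whole cultures, a different share of cells in S phase and a different amount of histone RNA per cell cannot be told apart.

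Summed over all 67 members, the TPM was 322 ± 18.3 in hyperoxia and 314 ± 21.1 in normoxia (SD, n = 6 each). The H2B sum was 213 ± 8.67 TPM in hyperoxia and 192 ± 11.1 TPM in normoxia, and the ranges, 204 to 225 TPM and 177 to 206 TPM, overlapped at their edge. Without H2BC12 the other 16 H2B genes summed to 39.4 ± 3.02 TPM in hyperoxia and 34.7 ± 3.69 TPM in normoxia. The other classes had lower mean sums in hyperoxia, at 21.1 against 23.7 TPM for H1, 55.6 against 60.7 TPM for H2A, 9.16 against 10.6 TPM for H3 and 23.8 against 27.8 TPM for H4, all with overlapping samples. These sums were not tested.

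Among the H2B genes 3 of 9 tested rose (33.3%, against 11.7% of all tested genes), 1 fell (11.1%, against 5.63%) and 5 did not pass. The median log2 fold change of the class was 0.22. H2BC12 had a lowest value of 162, a median of 171 and a highest of 183 TPM in hyperoxia, and 146, 155 and 169 TPM in normoxia. Hyperoxia 1, 4 and 6 lay below the highest normoxia sample, normoxia 6, and the other hyperoxia samples lay above the whole normoxia group. Its log2 fold change was 0.14 (SE 0.04, limma with Benjamini-Hochberg adjusted p = 0.0325). Of 26 alternatives run, 13 lost the call of H2BC12. It did not pass under median-of-ratios scaling (adjusted p = 0.170) or TMM scaling (adjusted p = 0.167), nor by an exact rank-sum test (adjusted p = 0.112). The call also ended without hyperoxia 2, 3 or 5 or normoxia 1, 2 or 5, each left out alone (limma, adjusted p between 0.0616 and 0.0707). Against normoxia 1 to 3 alone the adjusted p was 0.0619 (limma).

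H2BC15 showed the largest fold change among the members that rose. Its hyperoxia samples ran from 1.95 through a median of 4.29 to 5.04 TPM, and its normoxia samples from 1.35 through 1.75 to 2.01 TPM. In 5 of 6 hyperoxia samples it lay above every normoxia sample, and hyperoxia 2 lay within the normoxia range. The difference on the log2 scale was 0.79 (SE 0.17, limma with Benjamini-Hochberg adjusted p = 0.0078), and it passed with each of the 12 samples left out in turn but not by an exact rank-sum test (adjusted p = 0.0559). In GENCODE 29 it overlaps H2AC16 on the same strand and H2AC15 on the opposite strand, and its listed length of 4137 bases covers far more than an H2B coding sequence. H2AC16 averaged 2.63 ± 1.36 TPM in hyperoxia and 4.17 ± 1.34 TPM in normoxia (SD, n = 6 each) and did not pass (adjusted p = 0.138), so the split of reads between these overlapping genes is uncertain.

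H2BC4, one of the members known to have tailed transcripts, had 8.20, 10.8 and 12.9 TPM as its lowest, median and highest hyperoxia values, and 6.35, 8.26 and 9.14 TPM in normoxia. In 4 of 6 hyperoxia samples it was above all normoxia samples. On the log2 scale the fold change was 0.34 (SE 0.11, limma with Benjamini-Hochberg adjusted p = 0.0414). Of the 7 calls it was lost most often over the alternatives run. It ended when any 1 of 9 samples was left out (hyperoxia 2, 3, 4 or 6 or normoxia 1 to 5, adjusted p between 0.0502 and 0.0871) and with both scalings (adjusted p = 0.059 with median-of-ratios and 0.056 with TMM).

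H2BC8 fell. Its lowest, median and highest values were 0.54, 0.715 and 1.59 TPM in hyperoxia and 1.09, 1.88 and 2.45 TPM in normoxia, and hyperoxia 1 was the sample that reached into the normoxia range. The mean was 0.838 TPM in hyperoxia, under the minimum of 1 TPM, and 1.84 TPM in normoxia. H2BC8 was therefore tested only through its normoxia values, the group in which it is higher. The fitted log2 fold change was -0.62 (SE 0.17, limma with Benjamini-Hochberg adjusted p = 0.0239), and with a pseudocount of 0.1 in place of 1 it was -1.06 (adjusted p = 0.0200). Normoxia samples 4, 5 and 6 were the 3 highest, between 2.31 and 2.45 TPM, and against normoxia 1 to 3 alone the log2 fold change was -0.33 (adjusted p = 0.254). H2BC8 also lost its call without hyperoxia 3, normoxia 5 or normoxia 6 (adjusted p between 0.0503 and 0.0528), when every gene above 0 was tested (adjusted p = 0.0568) and by an exact rank-sum test (adjusted p = 0.0799).

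The other H2B genes tested did not pass. H2BC21, with 2.00 ± 0.221 TPM in hyperoxia and 1.49 ± 0.327 TPM in normoxia (SD, n = 6 each), had a log2 fold change of 0.28 (limma, Benjamini-Hochberg adjusted p = 0.0966). H2BC5 averaged 8.14 TPM in hyperoxia and 6.87 TPM in normoxia, and H2BC17 averaged 3.31 TPM in hyperoxia and 2.58 TPM in normoxia. H2BC11 averaged 6.25 TPM in hyperoxia and 5.95 TPM in normoxia, and H2BC9 averaged 2.17 TPM in hyperoxia and 2.65 TPM in normoxia. Among the 8 H2B genes under 1 TPM the highest were H2BC10 and H2BC6, with means of 0.612 and 0.573 TPM in hyperoxia and 1.12 and 1.14 TPM in normoxia.

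**Figure D2:**
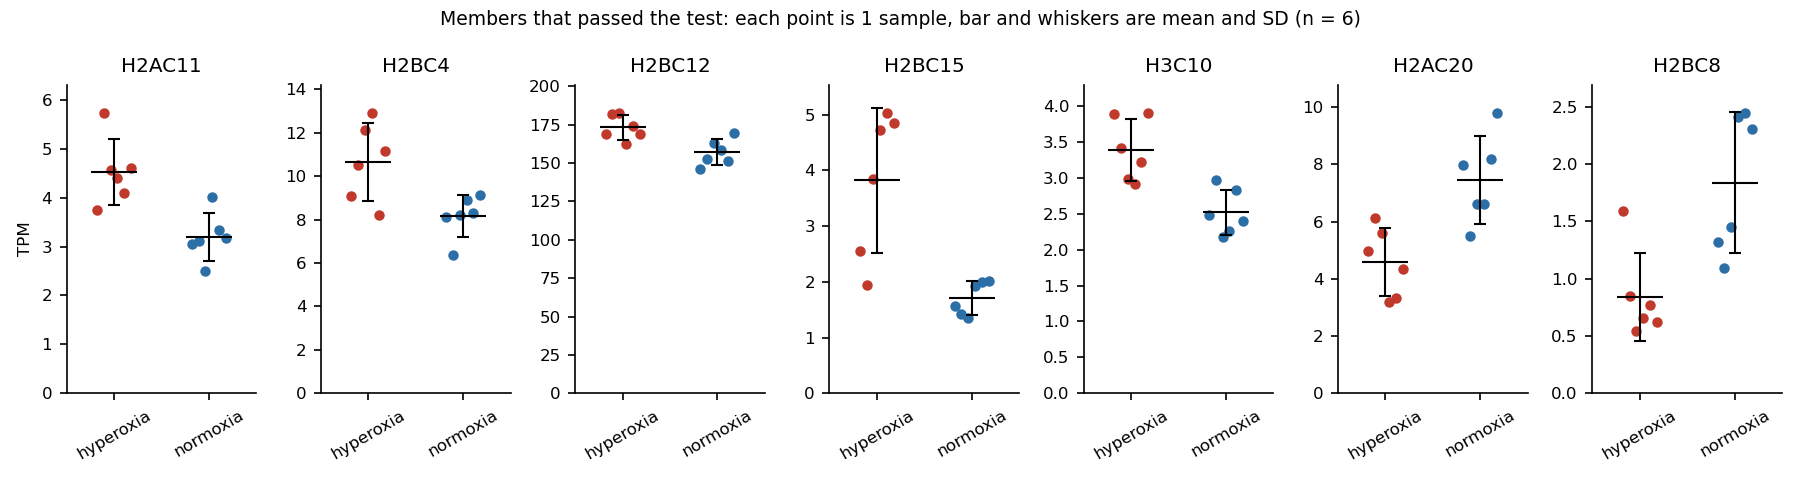
TPM of each sample for the 7 members that passed the test, hyperoxia left in red and normoxia right in blue, with the mean and SD of 6 samples in black. H2BC15 reaches 5.04 TPM in hyperoxia against a highest normoxia sample of 2.01 TPM, while H2AC20 and H2BC8 lie lower in hyperoxia, and in every panel the groups overlap.

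Of 12 H2A genes tested 1 rose (8.33%, against 11.7% of all tested genes), 1 fell (8.33%, against 5.63%) and 10 did not pass. The median log2 fold change of the class was -0.08. H2AC11 rose, with 3.75, 4.49 and 5.74 TPM as the lowest, median and highest hyperoxia values and 2.50, 3.15 and 4.01 TPM in normoxia. Only hyperoxia 1 lay below the highest normoxia sample. Hyperoxia over normoxia, the log2 fold change was 0.40 (SE 0.10, limma with Benjamini-Hochberg adjusted p = 0.0153), and it passed with each sample left out in turn, with an adjusted p of 0.0319 at most, but not without hyperoxia 2 and normoxia 6 together (adjusted p = 0.0517).

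H2AC20 fell. Its lowest, median and highest values were 3.19, 4.65 and 6.11 TPM in hyperoxia and 5.48, 7.31 and 9.81 TPM in normoxia, and hyperoxia 2 and 3 reached into the normoxia range. Its log2 fold change was -0.60 (SE 0.15, limma with Benjamini-Hochberg adjusted p = 0.0151), and it passed with each sample left out in turn. Against normoxia 1 to 3 alone it was -0.48 and did not pass (adjusted p = 0.144), nor did H2AC20 pass by an exact rank-sum test (adjusted p = 0.0559).

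H2AC6, the highest H2A gene taken singly and another with known tailed transcripts, had the lowest coefficients of variation of the 12 tested. Its lowest, median and highest values were 8.89, 10.5 and 11.4 TPM in hyperoxia and 8.96, 10.3 and 11.4 TPM in normoxia, an almost complete overlap. The difference on the log2 scale was -0.01 (95% interval -0.16 to 0.15, limma, Benjamini-Hochberg adjusted p = 0.964). Between 1 and 5 TPM the other H2A genes were less even, with coefficients of variation of up to 65.1% in hyperoxia and 81.4% in normoxia for H2AC15.

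H2AC18 and H2AC19 have identical coding sequences in GENCODE 29, and reads from one could not be told from the other there. H2AC18 ran from 4.13 to 18.7 TPM in hyperoxia and from 0 to 15.9 TPM in normoxia, and H2AC19 from 1.38 to 15.9 TPM in hyperoxia and from 4.95 to 18.4 TPM in normoxia. In hyperoxia 3 and 4 and in normoxia 6 one was high where the other was low, in normoxia 6 with 0 TPM for H2AC18 and 18.4 TPM for H2AC19. Their sum was steadier, at 18.1 ± 2.74 TPM in hyperoxia and 18.3 ± 2.35 TPM in normoxia (SD, n = 6 each), with a log2 fold change of -0.02 (limma, Benjamini-Hochberg adjusted p = 0.946). The coefficient of variation in normoxia was 12.9% for the sum, against 67.5% for H2AC18 and 48.7% for H2AC19. Sums over such pairs were chosen after the values were seen.

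The same was found for the H4 genes H4C11 and H4C12, which also have identical coding sequences. H4C11 was at 0 in hyperoxia 1, 2 and 6 and in normoxia 6, and between 4.86 and 8.03 TPM in the other hyperoxia samples and between 9.81 and 16.2 TPM in the other normoxia samples. H4C12 was at 9.12, 17.03 and 9.74 TPM in hyperoxia 1, 2 and 6 and at 8.57 TPM in normoxia 6. It lay between 1.22 and 2.36 TPM in the other hyperoxia samples and between 0.36 and 0.91 TPM in the other normoxia samples.

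Taken singly, these H4 genes had the largest fold changes of all members, at 1.44 for H4C12 (SE 0.57, limma with Benjamini-Hochberg adjusted p = 0.102) and -1.61 for H4C11 (SE 0.78, limma with Benjamini-Hochberg adjusted p = 0.182). Without normoxia 6 both passed, H4C12 at 1.86 (adjusted p = 0.0223) and H4C11 at -2.23 (adjusted p = 0.0330). The summed pair had 10.3 ± 3.44 TPM in hyperoxia and 11.998 ± 2.94 TPM in normoxia (SD, n = 6 each) and a log2 fold change of -0.22 (limma, Benjamini-Hochberg adjusted p = 0.437). In the authors' deposited table H4C12 has a log2 fold change of 1.57 with an adjusted p of 0.00369. A direction for either gene alone is therefore uncertain.

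**Figure D3:**
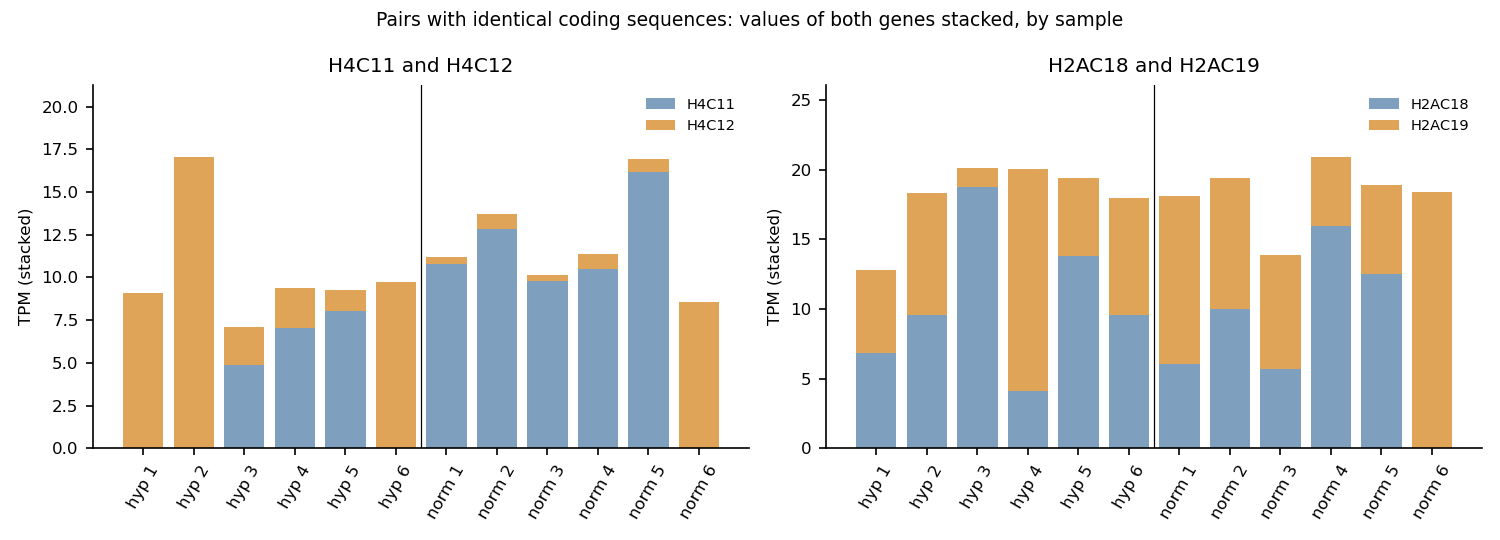
TPM of H4C11 and H4C12 (left) and of H2AC18 and H2AC19 (right), 2 pairs with identical coding sequences, stacked for each of the 6 hyperoxia and 6 normoxia samples. Single values switch between 0 and 17.03 TPM in the left panel, while the summed height stays between 7.09 and 17.03 TPM in hyperoxia and between 8.57 and 16.9 TPM in normoxia.

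None of the 6 H4 genes tested passed in limma, against 17.3% of all tested genes, or by the exact rank-sum test. Of the 6, 1 (H4C12) had an unadjusted limma p under 0.05. H4C14, the highest H4 gene taken singly, had 3.97, 7.19 and 8.56 TPM as its lowest, median and highest hyperoxia values. In normoxia H4C14 had 2.82, 8.48 and 11.7 TPM, with a log2 fold change of -0.18 (SE 0.25, limma with Benjamini-Hochberg adjusted p = 0.675). It shares its coding sequence with H4C15 and overlaps H3C14 on the opposite strand. Summed with H4C15 it gave 7.26 ± 1.31 TPM in hyperoxia and 8.41 ± 2.69 TPM in normoxia (SD, n = 6 each). H4C8 averaged 2.30 TPM in hyperoxia and 1.83 TPM in normoxia, where normoxia 4 stood at 4.09 TPM, and without that sample it passed (log2 fold change 0.49, adjusted p = 0.0396).

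Of 3 H3 genes tested 1 rose (33.3%, against 11.7% of all tested genes) and 2 did not pass. H3C10 had 2.92, 3.32 and 3.91 TPM as its lowest, median and highest hyperoxia values and 2.17, 2.45 and 2.97 TPM in normoxia. Its groups met at their edges, where hyperoxia 4 lay below normoxia 2. On the log2 scale the fold change was 0.32 (SE 0.09, limma with Benjamini-Hochberg adjusted p = 0.0274). The call ended without hyperoxia 1, hyperoxia 6 or normoxia 4 (adjusted p between 0.0517 and 0.0570), against normoxia 1 to 3 alone (adjusted p = 0.120) and when every gene above 0 was tested (adjusted p = 0.0694).

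H3C8 averaged 1.55 ± 0.257 TPM in hyperoxia and 1.27 ± 0.268 TPM in normoxia (SD, n = 6 each). H3C2 varied most, with 0.78 to 5.30 TPM in hyperoxia and 0.91 to 5.45 TPM in normoxia. The other 10 H3 genes lay under 1 TPM, and H3C14 and H3C15, whose coding sequences are identical, had equal values in all 12 samples, so they were not measured apart. Replication-dependent H3 was the class with the lowest sum, at 3.10% of the TPM of all members.

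The linker histone H1 was represented by 1 gene. H1-2, the somatic H1.2 and a member known to have tailed transcripts, had 17.4, 20.4 and 25.1 TPM as its lowest, median and highest hyperoxia values and 18.4, 21.7 and 26.3 TPM in normoxia. The groups overlapped over nearly their whole range. The fitted log2 fold change was -0.10 (95% interval -0.30 to 0.10, limma, Benjamini-Hochberg adjusted p = 0.503). H1-4 and H1-5 lay under the minimum, with means of 0.190 and 0.182 TPM in hyperoxia and 0.623 and 0.810 TPM in normoxia.

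The members also differed by the transcript the table gives them. Among the 61 core histone genes 19 had a listed length of 600 bases or more, too long for a coding sequence with a short 3′ end, a limit chosen after the values were seen. Of these 19, 11 reached 1 TPM and were tested. Among the 11, 4 rose (H2BC15, H2AC11, H2BC4 and H3C10) and 1 fell (H2BC8). Of the 20 other members tested 1 rose (H2BC12) and 1 fell (H2AC20). Of all tested genes 11.7% rose and 5.63% fell. The median log2 fold change of the 11 was 0.22, against -0.06 for the other 20. Values of the 11 were also steadier, with a median coefficient of variation of 16.5% in hyperoxia and 16.5% in normoxia. For the other 20 it was 42.1% in hyperoxia and 50.9% in normoxia. TPM is scaled to length, so at a like TPM a shorter listed transcript rests on fewer reads. The other 20 also include H2AC18, H2AC19, H4C11 and H4C12, whose values are not measured apart within each pair. What sets this difference in spread was not tested.

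Summed per sample, the 19 long-model genes gave 56.4 ± 2.51 TPM in hyperoxia and 49.0 ± 3.72 TPM in normoxia (SD, n = 6 each). The lowest hyperoxia sample, at 52.1 TPM, lay just under the highest normoxia sample at 52.7 TPM. The other 46 members, without H2BC12 and H1-2, summed to 72.1 ± 10.7 TPM in hyperoxia and 86.3 ± 11.5 TPM in normoxia. Their ranges were 63.9 to 92.4 TPM in hyperoxia and 70.9 to 103 TPM in normoxia. H2BC12 averaged 173 TPM in hyperoxia and 157 TPM in normoxia, and H1-2 averaged 20.6 and 22.2 TPM. The lower sum in hyperoxia therefore holds only with H2BC12 left out. These sums were formed after the values were seen and were not tested.

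Below 1 TPM the direction of the means was more one-sided than above it. Of the 28 members above 0 and under 1 TPM 22 had a lower mean in hyperoxia and 6 a higher one. Of the 31 at 1 TPM or more 14 had a lower and 17 a higher mean. H3C14 and H3C15, which have equal values, are both among the 22. The share over all genes in the range from 0 to 1 TPM was not computed, for these directions or for the unadjusted p-values below. The counts are therefore not a result about the members. With no filter on low values none of the 28 members under 1 TPM passed. Of all genes then tested, which include those at 1 TPM or more, 5.62% passed. Of these 28, 6 had an unadjusted p under 0.05, all with lower values in hyperoxia, and the smallest adjusted p was that of H1-4, at 0.106 (limma, Benjamini-Hochberg). The 36 members with a mean under 1 TPM, 8 of them at 0, summed to 6.05, 15.5, 6.56, 5.79, 5.97 and 7.34 TPM in hyperoxia 1 to 6, and to 7.94, 13.3, 11.3, 14.4, 20.01 and 17.8 TPM in normoxia 1 to 6. Hyperoxia 2 lay among the normoxia samples, and the other 5 hyperoxia samples lay under all of them.

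RN7SK, a nuclear RNA with no poly(A) tail, was high in some of the same samples. It stood at 33.2, 296, 70.6, 45.4, 48.2 and 55.9 TPM in hyperoxia 1 to 6 and at 13.1, 31.6, 29.9, 136, 210 and 113 TPM in normoxia 1 to 6. Hyperoxia 2 and normoxia 4, 5 and 6 were the 4 highest samples both for RN7SK and for the summed low members. Of the other untailed RNAs read by sample, RPPH1 and RNU4-2 had the same 4 highest samples. RN7SL1 did not, at 521 TPM in hyperoxia 3 and 376 TPM in normoxia 4. RNU4-1 did not either, at 53.6 TPM in hyperoxia 6 and 25.9 TPM in hyperoxia 2. Nor did RNU5A-1, a spliceosomal RNA, at 210 TPM in normoxia 5 and 4.90 TPM in hyperoxia 2. RNU5A-1 averaged 3.96 ± 1.07 TPM in hyperoxia and 65.0 ± 73.4 TPM in normoxia (SD, n = 6 each). The part of untailed RNA in the histone values was not tested.

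**Figure D4:**
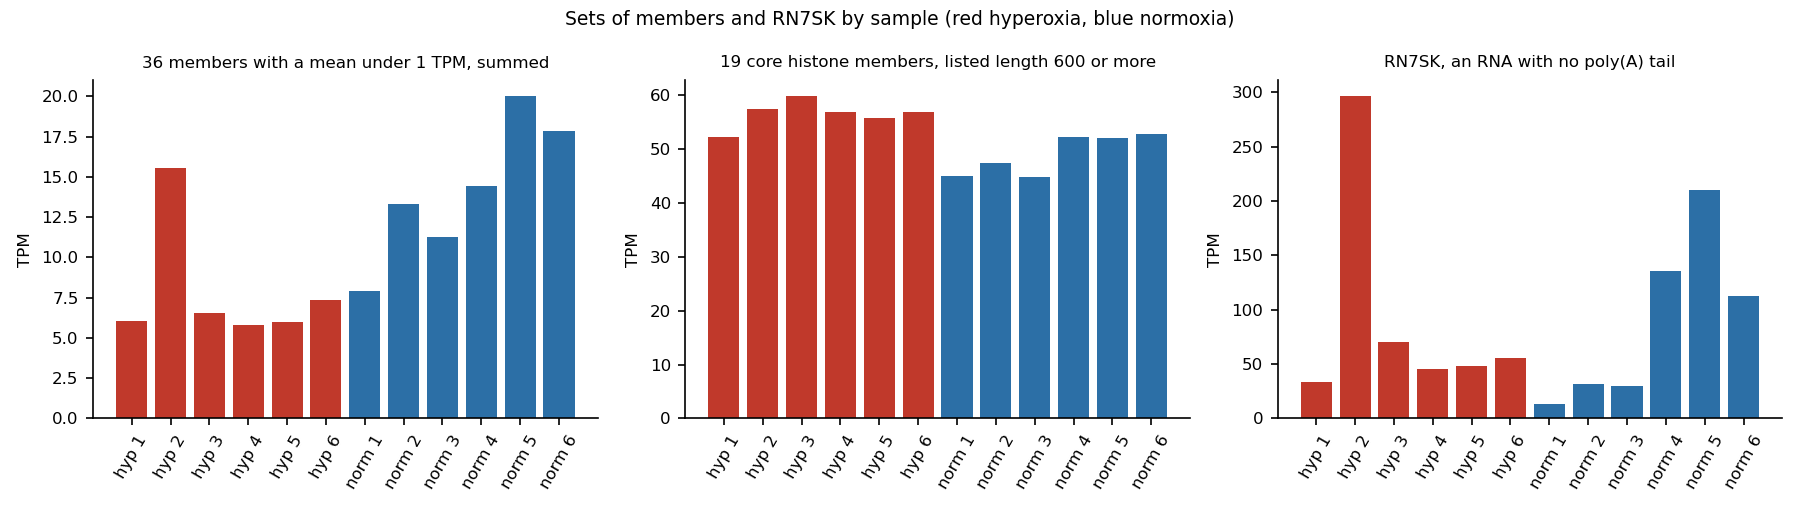
TPM by sample (hyperoxia red, normoxia blue) of the 36 members under 1 TPM summed (left), the 19 core histone members with a listed length of 600 bases or more summed (middle) and the untailed RNA RN7SK (right). Hyperoxia 2, at 15.5 TPM on the left and 296 TPM on the right, stands apart from the other hyperoxia samples in both, but not in the middle panel (57.4 TPM).

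At an adjusted p under 0.05 the authors' deposited table has 7 members higher and 2 lower in hyperoxia. The share of all genes called in that table was not computed, so these counts are not a result about the members. Besides 4 of the 5 members named above as higher and both named as lower, that table calls H2BC11, H2BC21 and H4C12 higher. Their log2 fold change for H2BC11 is 0.48 (adjusted p = 0.00151), while the log2 ratio of the mean TPM in the same table is 0.07. H2BC11 was the 1 member of the 31 in which these 2 quantities differed by more than 0.3. An adjusted p of 1 is given for 41 of the 67 members in the authors' deposited table.

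The list of histone gene transcription and 3′ end processing had 13 genes, of which 2 rose (15.4%, against 11.7% of all tested genes) and 11 did not pass, with a median log2 fold change of 0.06. SLBP, which binds the stem-loop, averaged 148 TPM in hyperoxia and 141 TPM in normoxia (log2 fold change 0.07, SE 0.03, limma with Benjamini-Hochberg adjusted p = 0.137). NPAT, the coactivator of histone gene transcription, averaged 11.2 TPM in hyperoxia and 10.3 TPM in normoxia (adjusted p = 0.363). The members that rose were the cap-binding subunit NCBP2 (log2 fold change 0.16, adjusted p = 0.00562) and the cleavage factor CSTF2 (0.13, adjusted p = 0.0159), of which CSTF2 did not pass with median-of-ratios scaling (adjusted p = 0.096). Against normoxia 1 to 3 alone neither passed (adjusted p = 0.053 for NCBP2 and 0.055 for CSTF2). LSM11, of the U7 particle that cuts histone mRNA, had a log2 fold change of 0.18 (adjusted p = 0.0651).

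Of 13 genes of histone mRNA decay 4 rose (30.8%, against 11.7% of all tested genes) and 9 did not pass. ERI1, the nuclease that trims the stem-loop, averaged 29.7 TPM in hyperoxia and 24.2 TPM in normoxia, without overlap (log2 fold change 0.29, SE 0.05, limma with Benjamini-Hochberg adjusted p = 0.00101). LSM1, LSM3 and LSM6, subunits of the ring that binds mRNA 3′ ends, rose by 0.17, 0.21 and 0.21 on the log2 scale. Under median-of-ratios scaling those 3 did not pass (adjusted p between 0.099 and 0.112), which left 1 of the 4, and 1 was also left against normoxia 1 to 3 alone. Without hyperoxia 3 the count was 2.

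Of 11 replication-independent histone genes tested none rose, 7 fell (63.6%, against 5.63% of all tested genes) and 4 did not pass, with a median log2 fold change of -0.23, against -0.08 for replication-dependent H2A and 0.22 for replication-dependent H2B. H1-10, a linker histone, averaged 63.7 TPM in hyperoxia and 91.0 TPM in normoxia (log2 fold change -0.51, SE 0.05, limma with Benjamini-Hochberg adjusted p = 1.31e-05), and CENPA, the H3 variant of centromeres, 45.4 TPM in hyperoxia and 57.6 TPM in normoxia. H2AZ1 averaged 1112 TPM in hyperoxia and 1319 TPM in normoxia.

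H2AX, the variant that is phosphorylated at DNA breaks, averaged 177 TPM in hyperoxia and 231 TPM in normoxia (log2 fold change -0.38, SE 0.07, limma with Benjamini-Hochberg adjusted p = 0.00239). H3-3B, one of the H3.3 genes, averaged 479 TPM in hyperoxia and 504 TPM in normoxia and did not pass (adjusted p = 0.183). Summed, the 12 listed genes of this kind gave 2542 ± 47.5 TPM in hyperoxia and 2943 ± 22.5 TPM in normoxia (SD, n = 6 each), and their ranges, 2461 to 2595 TPM and 2908 to 2969 TPM, did not overlap.

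Of 21 histone chaperones 5 rose, 1 fell and 15 did not pass, so that 28.6% were called, against 17.3% of all tested genes. SUPT16H, a subunit of the FACT complex, rose by 0.19, DAXX by 0.23 and ATRX by 0.26 on the log2 scale (limma, Benjamini-Hochberg adjusted p = 0.000709, 0.00293 and 0.00323). HIRA, which deposits H3.3 outside replication, fell by 0.27 (adjusted p = 0.00388), and did not pass against normoxia 1 to 3 alone (adjusted p = 0.070). Of 36 genes of S phase and DNA replication 8 rose, 5 fell and 23 did not pass (36.1% called, against 17.3% of all tested genes). The median log2 fold change of this list was 0.01. MCM6 and MCM7, subunits of the replicative helicase, fell by 0.30 and 0.28 on the log2 scale, and the S-phase cyclin CCNE2 rose by 0.42 and the clamp loader subunit RFC1 by 0.22 (adjusted p between 3.34e-05 and 0.000625). With median-of-ratios scaling 7 genes of this list rose and 8 fell.

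**Figure D5:**
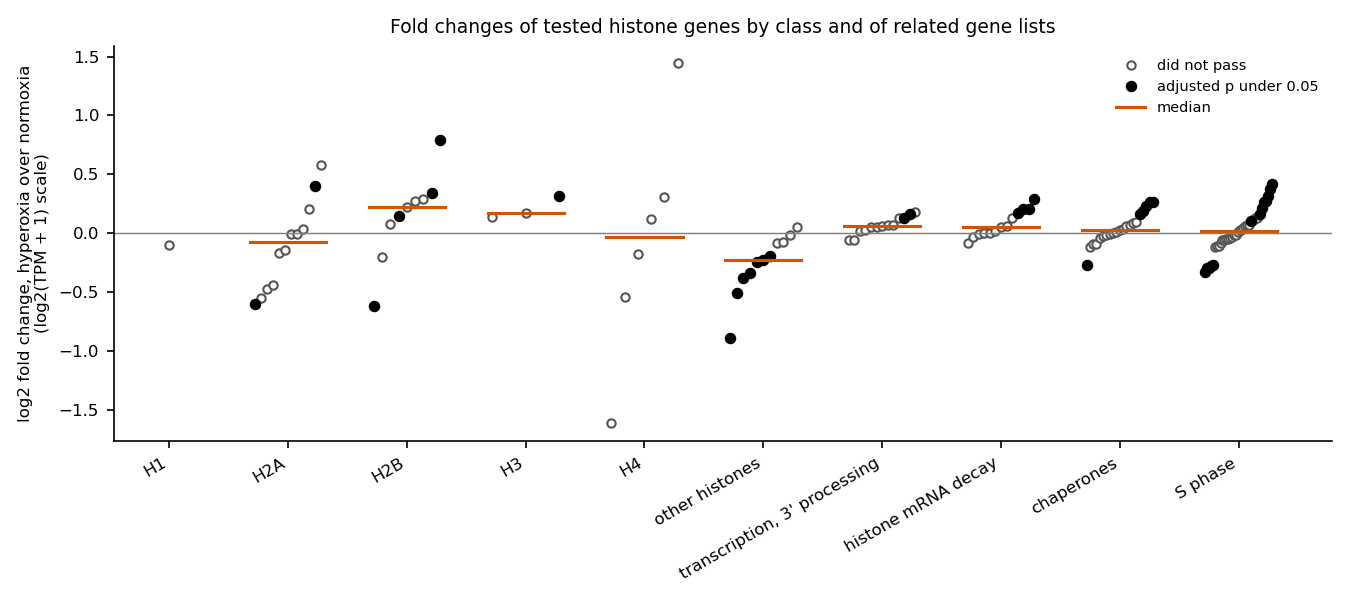
Log2 fold change (hyperoxia over normoxia, log2(TPM + 1) scale) of each tested gene in the 5 histone classes and in 5 lists of related genes, with filled points for an adjusted p under 0.05 and an orange line for the median. H2B has the highest median of the classes (0.22) and the replication-independent histones the lowest of the lists (-0.23), with 7 filled points below 0, while the widest points, in H4, are H4C11 and H4C12.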

How the data were processed

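RNA of 12 samples of H1299 cells was sequenced; per the labels' protocols it was extracted with Trizol. The extraction protocol names an Illumina TruSeq kit and the design text a removal of ribosomal RNA with a directional kit of another maker, so library type and strand are not settled. Per the submitters' processing notes, HTSeq 0.9.1 and edgeR 3.16.5 were used. Not given in the sources used here are the aligner, the annotation and how TPM was computed. A mouse build is listed in the notes although the identifiers are human, so no position was taken from the expression table.

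The authors deposited TPM per sample and as group means, per the file headers, in 1 table; each sample summed to between 996138 and 998797. The table also holds the authors' fold change as a ratio, its log2, and a p-value with its adjusted p-value. The log2 was checked against the ratio, and the group means against the samples. Of its genes 78 have deposited values that disagree in these checks, and none of these is a member. The fold change was checked against the mean TPM for the members only, and for H2BC11 they differ as given above. TPM keeps no depth, so no counting intervals are given.

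Genes with a mean of at least 1 TPM over the 12 samples were tested with limma 3.58.1 in R 4.3.3 (lmFit, eBayes with trend, two-sided) on log2(TPM + 1), a pseudocount of 1, which understates changes of low genes. Benjamini-Hochberg adjustment ran over all 14520 genes, at a threshold of 0.05. The fit was tested on simulated data. Between samples the correlation over tested genes lay between 0.964 and 0.983.

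Named were members past the threshold, the highest member of each class, the up to 4 smallest p of each list, and SLBP, NPAT, H2AX and H3-3B; some genes this rule gives are not reported here, and any others were picked with their values known. The members, lists and limits were chosen with earlier results of these data known. Transcript models came from GENCODE 29 and promoters from RefSeq (GRCh38.p14), which held 61 of the 67 members; motifs and coding sequences were searched in Python 3.11.15. Alternatives covered pseudocount, filter, scaling, variance model, rank-sum test, replicate block and left-out samples; sums of identical pairs and a fit without hyperoxia 2 and normoxia 6 were added after the data were seen.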

Additional observations from a re-analysis of the deposited data

Results flagged for a closer look

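In 80 groups of 6 values, those of the members tested and of the class and pair sums, 7 held a sample far from the others by Dixon's criterion (critical value 0.625), which chance gives in about 1 in 20 groups. H2BC8 was at 1.59 TPM in hyperoxia 1, against 0.85 TPM in the next hyperoxia sample. The pair H4C11 and H4C12 summed to 17.03 TPM in hyperoxia 2, against 9.74 TPM in the next, and the pair H2AC18 and H2AC19 to 12.83 TPM in hyperoxia 1, against 17.97 TPM in the next lowest. H4C12 alone was at 8.57 TPM in normoxia 6, against 0.91 TPM in the next. H3C2 was at 5.45 TPM in normoxia 5, against 2.00 TPM. H4C8 was at 4.09 TPM in normoxia 4, against 1.94 TPM. H2BC4 was at 6.35 TPM in normoxia 2, against 8.11 TPM in the next lowest sample.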

How the results depend on the processing

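No called result changed its direction under any alternative run, but the fitted fold change of 9 members that were not called took both signs (H1-2, H2AC6, H2AC8, H2AC13, H2AC15, H2AC18, H2BC11, H3C2 and H4C3). Of the 14520 genes tested 2516 were called, 1698 higher and 818 lower, and of the members 7, 5 higher and 2 lower. With normoxia 1 to 3 only, 1375 genes were called (1000 higher, 375 lower) and 3 members, all higher, with 0 lower. Median-of-ratios scaling gave 1279 higher and 1277 lower, and TMM 1308 higher and 1259 lower, each with 3 members higher and 2 lower; these scalings shifted the median of all genes by -0.03 on the log2 scale. The exact rank-sum test called 515 genes lower and 2 members, 2 higher and 0 lower. Without hyperoxia 2 and normoxia 6 together 485 genes were lower and 4 members were called, 3 higher and 1 lower. No filter and a minimum of 5 TPM gave 3 members each, 2 higher and 1 lower. With 1 sample left out in turn, 4 to 8 members were called, 3 to 6 higher and 1 to 3 lower; the fewest came without hyperoxia 3 or normoxia 5, and 1969 to 2456 genes over the whole table. The number of members at the minimum was 30 to 31 with a sample left out, and 11 at a minimum of 5 TPM, a fixed consequence of the higher limit. The cause of the other changes was not tested. Same-numbered samples deviated together with correlations of -0.117 to 0.017, so the numbers do not pair them; with the replicate block 2545 genes and 7 members were called (5 higher, 2 lower), with H2AC16 in (adjusted p = 0.0392) and H2BC8 out (adjusted p = 0.0590). The unknown depth limits the members under 1 TPM most.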

Other observations

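Among histone-related genes outside the rule, the H3 pseudogene H3P6 was listed at 251 ± 16.2 TPM in hyperoxia and 240 ± 16.1 TPM in normoxia (SD, n = 6 each), above every functional member including H2BC12. H2AB2 and H2AB3, X-linked H2A variant genes that are known from testis, had equal values, at 34.8 ± 4.02 TPM in hyperoxia and 27.7 ± 2.74 TPM in normoxia (SD, n = 6 each), and were not measured apart. These 3 genes were chosen after their values were seen and were not tested here as members.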
